A study of Homo sapiens with 2 samples.

Results

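The genes described here are 39 genes of homologous recombination and of the Fanconi anaemia pathway, taken by name from a transcript table of 20263 genes without use of their measured values. They are the damage kinases with their partners, the chromatin signalling proteins at breaks, the end resection enzymes, the BRCA1 and BRCA2 complexes, the strand exchange proteins, the Fanconi core complex, and FANCD2, FANCI and SLX4. The RNA came from H9, an established human embryonic stem cell line, treated for 48 h either with a small interfering RNA against HNRNPA1 (siHNRNPA1) or with a control small interfering RNA (sicontrol). HNRNPA1 encodes hnRNP A1, an RNA-binding protein that regulates the choice of splice sites, and the series concerns alternative splicing in the self-renewal of these cells. For each condition the labels tie 1 mRNA sequencing library to a column of the table, so no test was made, and every difference described here is a difference between 2 libraries. In bulk RNA, fewer cells that express a gene and less RNA per cell cannot be told apart.

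Homologous recombination repairs a broken chromosome by copying the sister chromatid, and therefore works in S and G2 phase. The kinases ATM and ATR signal the damage, nucleases trim the broken ends to single strands, and BRCA2 and its partners act on them to start the search for a matching sequence. The Fanconi pathway recognises crosslinked DNA at stalled replication forks: the core complex attaches ubiquitin to FANCD2 and FANCI, and nucleases then cut the crosslink out. Embryonic stem cells divide fast with a short G1 phase and are known to rely on homologous recombination.

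The siHNRNPA1 library held 28147828 estimated counts and the sicontrol library 26680342. HNRNPA1 itself had 179.9 FPKM (fragments per kilobase of transcript, scaled to sequencing depth) after siHNRNPA1 and 662.7 after sicontrol, a log2 fold of -1.88. All 10 pluripotent cell markers were measured, with POU5F1 at 1355 and 864 FPKM, and 3 of the 10 were at least 2-fold lower after siHNRNPA1: SOX2 with 58.3 and 126.2 FPKM (log2 fold -1.10), DPPA4 with 118.6 and 345.7 FPKM (-1.54), and LIN28B, an RNA-binding protein of these cells, with 5.97 and 20.6 FPKM (-1.63). The 5 neural progenitor markers summed to 3.80 and 3.45 FPKM and the 7 mesoderm and endoderm markers to 2.47 and 0.912 FPKM, after siHNRNPA1 and sicontrol. Of the latter, FOXA2 had 1.52 FPKM after siHNRNPA1 and was listed at 0 after sicontrol, and GATA6 and SOX17 were listed at 0 in both. Of the 7 fibroblast markers, COL3A1, DCN and LUM were listed at 0 in both libraries, and the 7 summed to 217.5 and 263.9 FPKM, of which THY1, also present on pluripotent stem cells, made up 181.5 and 232.5. The homologous recombination pathway follows the cell cycle, so 2 lists were set beside it. Of 16 S phase genes 4 were higher by 2-fold or more and none lower (median log2 fold 0.21), where 12.4% and 21.9% of all genes were. Of 18 genes of mitosis, 11 passed 2-fold downward and none upward (median -1.23). Relative to genes alike in level, GC content and length, a measure described with the repair genes, 4 mitosis genes passed 2-fold downward and 1 upward (median -0.56), and 4 S phase genes upward (median 0.64). The part of cell cycle phase in the values below was not tested.

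The folds of the repair genes lay on both sides of 0, with a median of -0.37 as measured and of 0.26 relative to genes alike in level, GC content and length. A gene's level is the sum of the FPKM of its transcripts, and its fold is the log2 ratio after 1 FPKM was added to both levels, which understates the change of weakly expressed genes. Of the 39 genes, 38 had a mean of at least 1 FPKM and were kept. FANCB, a core complex subunit with 0.497 FPKM after siHNRNPA1 and 0.836 after sicontrol, was not. Of the 38, 9 were at least 2-fold lower (23.7%), where 21.9% of all 11921 genes kept were, and 3 were at least 2-fold higher (7.89%), where 12.4% of all genes were. The median over all genes kept was -0.13. Of the 38 folds 27 were negative (71.1%), where 54.8% of those of all genes kept were. The shares past 2-fold were thus near those of the whole table. Counts by role below are to be read beside the same 21.9% and 12.4% of all genes. In the deposited TPM, 15 of the genes were lower, where 28% of all genes were, and 1 was higher, where 10.5% were. The median of all genes was -0.28 in that unit. With 5 FPKM added in place of 1, no repair gene passed 2-fold, where 7.94% of all genes were lower and 7.05% higher. With 0.1 FPKM added, 13 repair genes were lower and 4 higher, a setting in which the shares of all genes were not counted here. Summed over the 39 genes, the level was 343.6 FPKM after siHNRNPA1 and 392.0 after sicontrol. Single genes lay between 50 and 6700 estimated counts in a library. The half-width of the 95% counting interval of the log2 count ratio was at most 0.54.

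**Figure D1:**
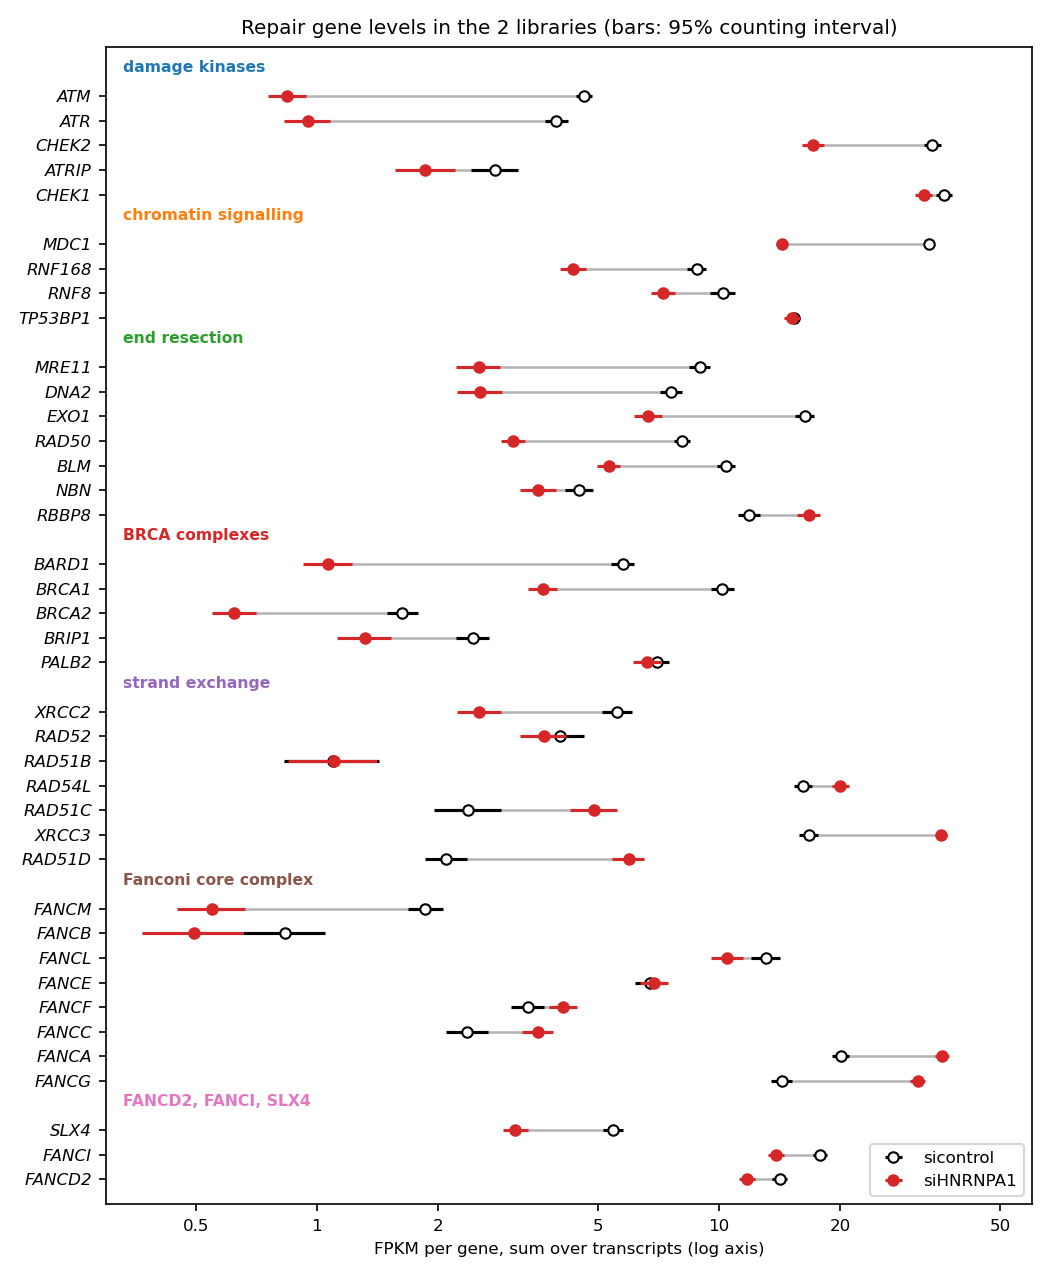
FPKM of each of the 39 genes (log axis) in the sicontrol library (open circles) and the siHNRNPA1 library (red circles), grouped by role, with 95% Poisson intervals that cover counting error only. ATM, MRE11 and BARD1 lie far to the left after siHNRNPA1, whereas RAD51D, XRCC3 and FANCG lie to the right.

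Of the 5 damage kinases and partners, ATM and ATR were at least 2-fold lower after siHNRNPA1, and the other 3 had negative folds within 2-fold. ATM (ENSG00000149311, chr11:108222484-108369102, plus strand), the kinase that answers double-strand breaks, had 0.845 FPKM after siHNRNPA1 (0.758 to 0.941, the 95% Poisson interval, which covers counting error only) and 4.62 FPKM after sicontrol (4.41 to 4.84), a log2 fold of -1.61. ATR (ENSG00000175054, chr3:142449235-142578826, minus strand), the kinase that answers single-stranded DNA at stalled forks, had 0.949 FPKM (0.830 to 1.08) and 3.94 FPKM (3.69 to 4.20), a log2 fold of -1.34. In the siHNRNPA1 library both kinases lay among the most weakly expressed genes of the set. ATRIP, which brings ATR to that DNA, had 1.86 and 2.77 FPKM (log2 fold -0.40). The effector kinases were far more abundant. CHEK2, downstream of ATM, had 17.1 FPKM after siHNRNPA1 and 33.9 after sicontrol (log2 fold -0.94), and CHEK1, downstream of ATR, 32.3 and 36.3 FPKM (-0.16). After median ratio scaling CHEK1 stood at -0.01, and relative to genes alike in level, GC content and length at 0.12.

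Of the 4 genes that build or read the ubiquitin signal on chromatin around a break, 1 was at least 2-fold lower. MDC1 (ENSG00000137337, chr6:30699807-30717889, minus strand), the scaffold that binds phosphorylated H2AX, had 14.4 FPKM after siHNRNPA1 (13.9 to 14.9) and 33.3 FPKM after sicontrol (32.5 to 34.1), a log2 fold of -1.16. Both ubiquitin ligases had negative folds within 2-fold: RNF168 had 4.34 and 8.79 FPKM (-0.87), and RNF8 7.26 and 10.2 FPKM (-0.44). In counts RNF8 differed less, with a log2 ratio of -0.11 and an interval from -0.25 to 0.04. TP53BP1, whose protein 53BP1 restrains end resection, had nearly the same summed level in both libraries, 15.2 and 15.3 FPKM (-0.01, and 0.13 after median ratio scaling), but from different transcripts, as described below.

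End resection held the largest number of lower genes, 4 of 7, and none was higher by 2-fold. MRE11 (ENSG00000020922, chr11:94415578-94493908, minus strand), the nuclease that starts resection, had 2.52 FPKM after siHNRNPA1 (2.22 to 2.85) and 8.96 after sicontrol (8.43 to 9.51), a log2 fold of -1.5. RAD50, the ATPase of the same complex, had 3.08 and 8.10 FPKM (-1.16), and NBN, the subunit that binds ATM, 3.55 and 4.49 FPKM (-0.27). The nucleases of long-range resection were both at least 2-fold lower: EXO1 had 6.66 and 16.3 FPKM (-1.18) and DNA2 2.54 and 7.59 FPKM (-1.28). BLM, the helicase that works with DNA2, had 5.31 and 10.4 FPKM (-0.85). RBBP8, which encodes CtIP, the activator of MRE11, was the exception of the group with 16.7 and 11.9 FPKM (0.46). Its estimated counts were 920 and 1037, a log2 ratio per library total of -0.25 (interval -0.38 to -0.12), so for RBBP8 FPKM and counts differed in sign.

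For BLM the difference in the total was carried by a single transcript. In the control library 49.9% of its FPKM belonged to ENST00000559724, which GENCODE 29 types as a target of nonsense-mediated decay, the pathway that degrades mRNAs with an early stop codon. This transcript had 727 estimated counts after sicontrol and none after siHNRNPA1, which allows it up to 0.397% of the 928 counts there (upper limit of the 95% Clopper-Pearson interval). The transcripts with a complete coding sequence had 5.31 FPKM after siHNRNPA1 and 5.22 after sicontrol, a log2 fold of 0.02. The difference in the summed level of BLM thus lay in the decay transcript.

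All 5 genes of the BRCA1 and BRCA2 complexes had negative folds, 2 of them at least 2-fold, but PALB2 stood at 0.07 once the libraries were scaled by their median ratio. BARD1 (ENSG00000138376, chr2:214725646-214809711, minus strand), the obligate RING partner of BRCA1, had 1.07 FPKM after siHNRNPA1 (0.922 to 1.23) and 5.76 after sicontrol (5.39 to 6.16). Its log2 fold of -1.71 was the lowest of the 38. BRCA1 had 3.65 FPKM (3.35 to 3.97) and 10.2 FPKM (9.53 to 10.9), a log2 fold of -1.27. In counts the BRCA1 difference was smaller, 548 against 901 or a log2 ratio of -0.79 (-0.95 to -0.64). Not all BRCA1 transcripts were lower. The complete coding ENST00000357654 had 1.49 FPKM after siHNRNPA1 and 1.16 after sicontrol (351 and 255 counts), 40.8% and 11.4% of the gene. All complete coding BRCA1 transcripts together had 3.17 and 6.39 FPKM. BRCA2, the central mediator of strand exchange, was weak in both libraries with 0.623 and 1.63 FPKM (-0.70). BRIP1, a helicase bound to BRCA1, had 1.32 and 2.44 FPKM (-0.57), and PALB2, the bridge between BRCA1 and BRCA2, 6.64 and 7.0 FPKM (-0.07). The counting intervals of the PALB2 levels, 6.13 to 7.18 and 6.53 to 7.49 FPKM, overlapped, while those of BRIP1 did not.

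Of the 7 strand exchange genes 2 were past 2-fold upward, beside the 12.4% of all genes, and none downward. Differences between roles were not tested. RAD51D (ENSG00000185379, chr17:35092208-35121497, minus strand), a subunit of a strand exchange complex, had 5.96 FPKM after siHNRNPA1 (5.43 to 6.53) and 2.10 after sicontrol (1.86 to 2.36), a log2 fold of 1.17. In counts RAD51D differed less, 461 against 282, a log2 ratio of 0.63 (0.41 to 0.85). XRCC3 (ENSG00000126215, chr14:103697609-103715504, minus strand), which forms a complex with RAD51C, had 35.7 FPKM (34.4 to 37.0) and 16.7 FPKM (15.8 to 17.6), a log2 fold of 1.05. RAD51C had 4.88 and 2.38 FPKM (0.80). XRCC2, which pairs with RAD51D, lay the other way with 2.54 and 5.57 FPKM (-0.89). RAD51B could hardly be measured, with 63 and 56 estimated counts and 1.11 and 1.10 FPKM (0.0044). RAD52, an annealing protein, had 3.67 and 4.03 FPKM (-0.11), and RAD54L, a DNA motor protein of strand exchange, 20.04 and 16.2 FPKM (0.29). The genes of these complexes thus lay on both sides, XRCC3, RAD51C and RAD51D above their control level and XRCC2 below it.

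In the Fanconi core complex 1 of the 7 genes kept was higher by 2-fold or more, and none was lower by that much. The subunits FANCA, FANCC, FANCF and FANCE had positive folds: FANCA had 35.9 FPKM after siHNRNPA1 and 20.1 after sicontrol (0.81), FANCC 3.55 and 2.37 FPKM (0.43), FANCF 4.10 and 3.35 FPKM (0.23), and FANCE 6.89 and 6.73 FPKM (0.03, but -0.11 in TPM). FANCL, the ubiquitin ligase of the complex, had 10.5 and 13.1 FPKM (-0.29), and FANCM, the motor protein that anchors it on DNA, 0.549 and 1.86 FPKM (-0.89). Without the added 1 FPKM, FANCM stood at 29.5% of its control level, and its log2 count ratio was -1.97 (-2.30 to -1.66). FANCG (ENSG00000221829, chr9:35073835-35080016, minus strand), a scaffold subunit, had 31.2 FPKM after siHNRNPA1 (29.9 to 32.5) and 14.3 after sicontrol (13.5 to 15.2), a log2 fold of 1.07.

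The higher level of FANCG was that of an RNA annotated as a decay target. ENST00000425676, typed as nonsense-mediated decay, held 75.6% of the FANCG FPKM after siHNRNPA1 (1647 of 2194 estimated counts) and 2.26% after sicontrol (22 of 1111). The complete coding transcript ENST00000378643 went from 91.0% after sicontrol to 18.0%. Within the coding sequence, the decay transcript lacks an exon of 203 bases at chr9:35078141-35078343 (GRCh38, minus strand), which was contained in 97.7% of the FANCG FPKM that could be assigned after sicontrol and in 24.4% after siHNRNPA1. Its length is not a multiple of the codon length. The exon is printed in capitals between 20 bases of each neighbouring exon, and beneath it the joined exons of the skipped form up to the stop codon, in capitals, which starts 11 bases past the junction.
FANCG exon: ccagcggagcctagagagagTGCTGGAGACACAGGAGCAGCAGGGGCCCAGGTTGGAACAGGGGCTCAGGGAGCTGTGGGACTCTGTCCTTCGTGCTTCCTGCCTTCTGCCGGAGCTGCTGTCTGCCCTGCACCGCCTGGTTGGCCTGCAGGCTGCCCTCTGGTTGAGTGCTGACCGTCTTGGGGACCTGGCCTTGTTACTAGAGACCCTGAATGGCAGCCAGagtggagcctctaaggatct
FANCG skipped: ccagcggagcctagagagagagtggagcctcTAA
The complete coding FANCG transcripts summed to 5.60 FPKM after siHNRNPA1 and 13.0 after sicontrol, a log2 fold of -1.09. FANCG therefore changed sides: 2-fold higher as a gene and 2-fold lower as coding RNA.

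FANCD2, FANCI and SLX4, the clamp that the core complex modifies and the scaffold of the nucleases, were all within 2-fold. FANCD2 had 11.8 FPKM after siHNRNPA1 and 14.1 after sicontrol (-0.25), FANCI 13.9 and 17.8 FPKM (-0.34), and SLX4 3.12 and 5.44 FPKM (-0.65). FANCD2 differed in how its coding sequence ended. Transcripts with the downstream last exon made up 89.1% of its FPKM after sicontrol and 46.2% after siHNRNPA1. The transcript that reads past the splice site of the preceding exon, ENST00000287647, held 1.61% after sicontrol (37 of 2055 estimated counts) and 53.0% after siHNRNPA1. Both ends are coding and are printed from the point where they part, with the stop codon in capitals, at chr3:10101188-10101262 for the downstream end and chr3:10098816-10098950 for the extended one (plus strand). They hold 72 and 132 coding bases.
FANCD2 downstream end: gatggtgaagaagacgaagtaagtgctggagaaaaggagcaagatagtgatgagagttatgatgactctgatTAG
FANCD2 extended end: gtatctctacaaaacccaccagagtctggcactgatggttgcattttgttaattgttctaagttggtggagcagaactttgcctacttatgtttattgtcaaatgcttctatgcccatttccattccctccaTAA
Of the 3 transcripts with the downstream end, ENST00000383807 had 67.3% of the FANCD2 FPKM after sicontrol and none after siHNRNPA1, while ENST00000419585 went from 20.5% to 46.2%.

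FANCI differed in a cassette exon. The exon of 180 bases at chr15:89294915-89295094 (plus strand), printed in capitals between 20 bases of each neighbour, was contained in 63.8% of the FANCI FPKM that could be assigned after sicontrol and in 85.3% after siHNRNPA1. Its length keeps the reading frame.
FANCI exon: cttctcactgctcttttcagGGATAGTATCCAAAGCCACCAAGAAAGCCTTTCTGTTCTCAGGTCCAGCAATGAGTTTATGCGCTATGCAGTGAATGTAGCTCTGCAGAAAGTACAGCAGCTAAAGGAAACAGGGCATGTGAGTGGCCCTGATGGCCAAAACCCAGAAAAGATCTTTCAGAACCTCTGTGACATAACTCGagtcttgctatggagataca
The complete coding FANCI transcripts had 11.3 FPKM after siHNRNPA1 and 11.2 after sicontrol. The core of the sequence that hnRNP A1 is known to bind, TAGG, and its longer form TAGGG were searched in the FANCG and FANCI exons on the sense strand only, and neither exon holds them. Among internal exons of GENCODE 29, TAGG occurs in 18.9% of 477 that are 203 bases long and in 14.7% of 899 that are 180 bases long, and TAGGG, which contains TAGG, in 5.66% and 4.004%. The introns beside the exons were not searched. These exons and sequences were chosen after the transcript shares had been seen.

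Transcript shares differed in most of the well-expressed repair genes. A share is the percentage of a gene's FPKM that falls on 1 transcript, and it was compared for the 16 repair genes that have at least 2 transcripts and reach 5 FPKM in each library. In 11 of the 16 (68.8%) some share differed by at least 20 percentage points, where 40.6% of all 5715 such genes did. The median of the largest difference was 31.0 points in the 16 genes and 15.4 points in all. The transcript with the largest share was another one in 10 of the 16, against 28.7% of all such genes. The FPKM-weighted mean transcript length was lower after siHNRNPA1 in 7 of the 16, against 42.6% of all. The shares rest on the authors' division of reads between overlapping transcripts, and junction reads were not used here.

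**Figure D2:**
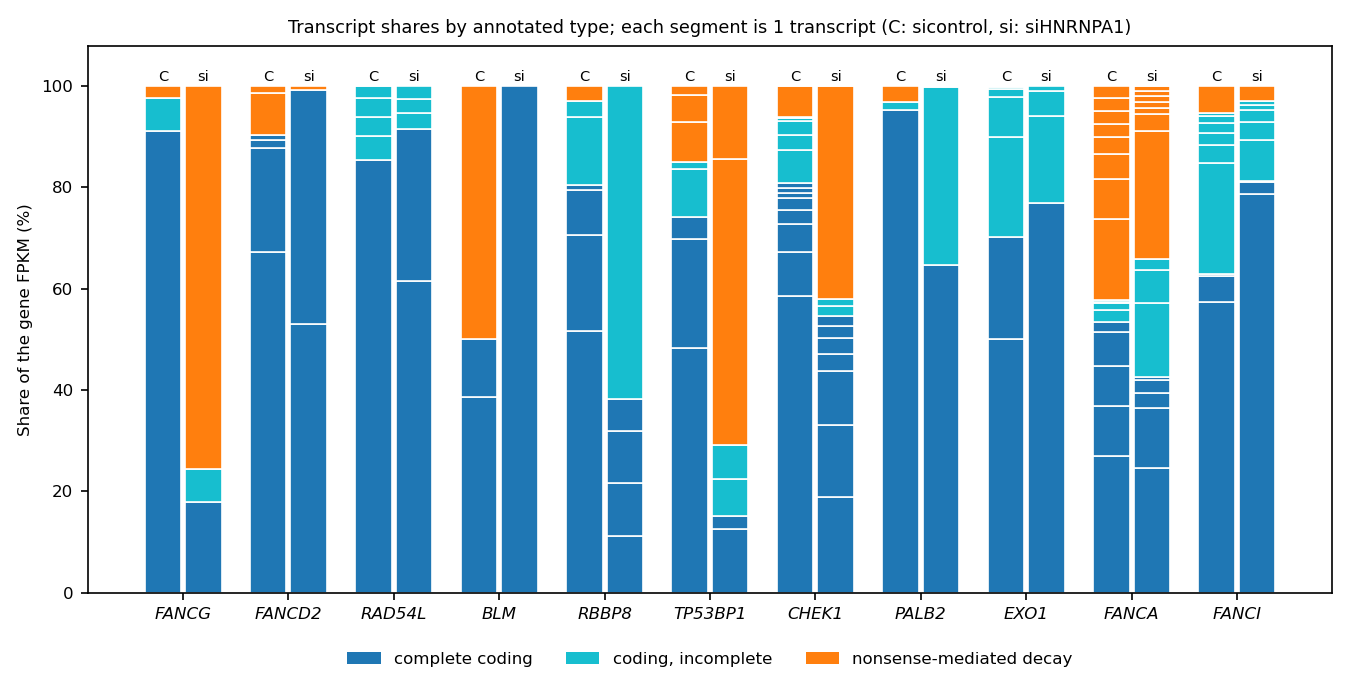
Share of the gene FPKM by transcript in the 11 repair genes past 20 percentage points, for the sicontrol (C) and siHNRNPA1 (si) library; each segment is 1 transcript, coloured by its GENCODE 29 type. Nonsense-mediated decay transcripts fill most of the FANCG and TP53BP1 bars after siHNRNPA1 and 49.9% of the BLM bar after sicontrol.

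In 6 of the 11 genes the transcript that gained the most was not a complete coding one, where this held for 18.2% of all 2318 genes past 20 points. In 8 of the 11 the transcript that lost the most was complete coding, where 77.5% of the 2318 were. In TP53BP1 the complete coding transcript ENST00000450115 had 48.4% after sicontrol and 2.54% after siHNRNPA1. The largest gain was that of ENST00000411772, a nonsense-mediated decay model with an incomplete coding sequence, at 5.50% and 56.3%. In CHEK1 the coding ENST00000544373 went from 58.7% to 18.8%, and the decay model ENST00000498122 from 6.19% to 42.0%. By estimated counts this model of 755 bases went from 2.76% to 21.8%, a gain of 19.0 points. RBBP8 lost ENST00000327155, of 3288 bases, from 51.7% to a listed 0, and gained the incomplete model ENST00000583057, of 1195 bases, from 13.5% to 61.8%. By estimated counts the share of this short model after siHNRNPA1 was 44.5%. In PALB2 the incomplete model ENST00000566069, of 626 bases, had no counts after sicontrol and 35.1% of the FPKM after siHNRNPA1, but only 7.88% of the counts.

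RAD54L and EXO1 exchanged transcripts with the same coding sequence. In RAD54L, ENST00000371975 went from 85.4% after sicontrol to 29.8%, and ENST00000442598, with no counts after sicontrol, held 61.6% after siHNRNPA1. The 2 RAD54L transcripts differ in the 5′ untranslated region, where the lost one has 597 bases of its own. In EXO1, ENST00000366548 went from 50.1% to 76.9% and ENST00000348581 from 20.1% to a listed 0. FANCA, with 12 decay transcripts, exchanged short decay models: ENST00000568626 went from 3.29% to 25.2% and ENST00000567988 from 16.1% to 3.23%. By estimated counts ENST00000568626, of 727 bases, held 8.58% after siHNRNPA1, a gain of 7.59 points. By count shares 8 of the 16 genes passed 20 points, without FANCA, PALB2 and FANCI, where the gain of ENST00000310775 was 18.4 points. The share of all genes was not counted here by count shares, so this number has no background beside it. All decay transcripts of FANCA together held 42.3% after sicontrol and 34.1% after siHNRNPA1. The other 5 genes had largest differences from 10.4 points (XRCC3) over 12.3 (MDC1), 12.9 (CHEK2) and 14.6 (RNF8) to 17.5 (FANCL).

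Decay transcripts moved in both directions. Of the 13 repair genes with a decay transcript among these 16, the share of such transcripts was at least 20 points higher after siHNRNPA1 in 3, FANCG, TP53BP1 and CHEK1, where 6.37% of all 2856 such genes were. It was at least 20 points lower in 2, BLM and RNF8, where 7.07% were. For RNF8 the decay share was 50.8% after sicontrol and 27.5% after siHNRNPA1. By estimated counts the differences in CHEK1 (19.0 points) and RNF8 (-18.7 points) were under 20. The complete coding transcripts of RNF8 had 4.76 FPKM after siHNRNPA1 and 3.71 after sicontrol. Their log2 fold was 0.29, against -0.44 for the whole gene.

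Below 5 FPKM the shares rest on fewer counts. MRE11 had 144 of its 255 counts on ENST00000393241 after siHNRNPA1, 65.8% of the FPKM, and 11.7% of the FPKM after sicontrol. NBN had 67.8% of its FPKM on ENST00000265433 after sicontrol and no count on it after siHNRNPA1, where ENST00000409330 had 52.9%. ATRIP had 97.8% on ENST00000320211 after sicontrol and 5.05% after siHNRNPA1, where ENST00000346691 held 69.7% and had no count after sicontrol. All of these are complete coding models. Some other weak genes gained on incomplete models. On ENST00000440722 DNA2 went from 3.20% to 40.2%, BRIP1 on ENST00000584322 from 0 to 39.3% and FANCM on ENST00000554809 from 7.37% to 34.9%. By estimated counts these 3 models held 16.4%, 7.74% and 19.0% after siHNRNPA1. The decay share went from 18.2% to 40.3% in RAD51D and from 28.8% to 2.51% in RAD52. For RAD51D the complete coding transcripts gave a log2 fold of 0.68.

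Summed over complete coding transcripts alone, the repair genes had a lower median fold than as whole genes, but single genes moved in both directions. This sum was taken after the shares had been seen. With it 36 genes had a mean of at least 1 FPKM, without FANCB, BRCA2 and RAD51B. Of the 36, 10 were at least 2-fold lower (27.8%), where 21.2% of all 11447 genes measured in this way were, and 1 was higher (2.78%), where 13.3% were. The median log2 fold was -0.68, against -0.11 over all genes. These folds of complete coding transcripts were not set against genes alike in level, GC content and length. Of the 10 lower genes, 7 were also lower as whole genes, and TP53BP1, FANCG and FANCM were added. TP53BP1 had 2.31 FPKM of complete coding RNA after siHNRNPA1 and 11.4 after sicontrol, a log2 fold of -1.90, the lowest of the 36. MDC1 and BRCA1 came to -0.98 and -0.83. XRCC3, at 31.8 and 12.9 FPKM (1.24), was the one that stayed higher. RBBP8 came to 6.40 and 9.54 FPKM (-0.51), CHEK1 to 17.6 and 29.4 FPKM (-0.70), and NBN to 1.88 and 4.06 FPKM (-0.82).

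**Figure D3:**
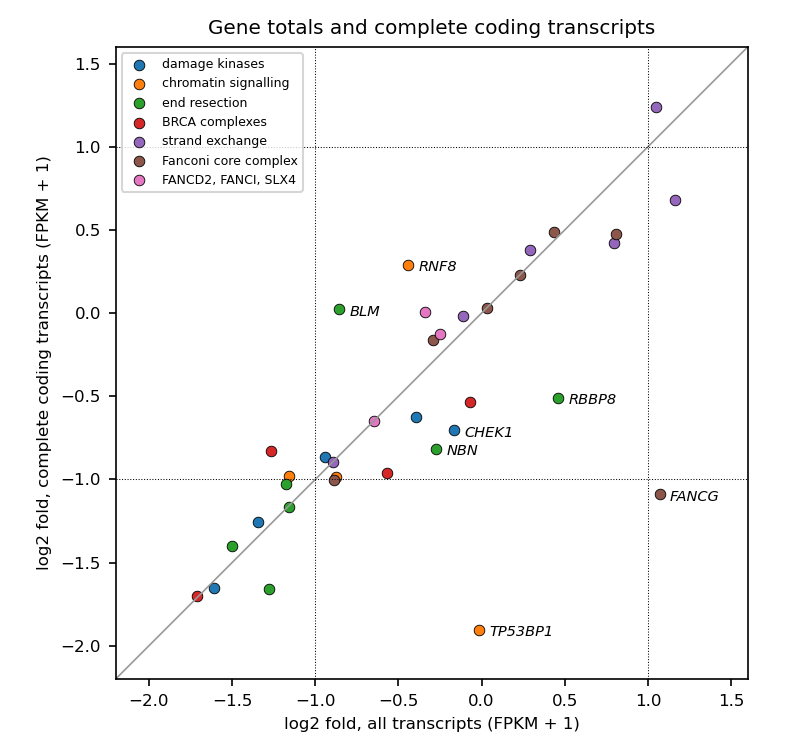
Log2 fold of the complete coding transcripts (vertical) against that of all transcripts (horizontal) for the 36 repair genes measured by both; the diagonal marks equal folds and dotted lines 2-fold. FANCG lies at 1.07 and -1.09 and TP53BP1 at -0.01 and -1.90, far below the diagonal, and BLM at -0.85 and 0.02 above it.

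Folds in these 2 libraries went with the base composition and length of the RNA, and the repair genes followed the same course. Across the 38 genes, which share both libraries, Spearman's rho of the fold with the GC content of the most abundant transcript was 0.47 and with its length -0.51 (Pearson's r 0.54 and, with log2 length, -0.51). Over all 11916 genes with both properties rho was 0.58 and -0.46. The most abundant transcripts of the 9 lower genes had a median length of 5499 bases and a median GC content of 40.1%, and those of the 3 higher genes 2108 bases and 55.9%. Of the 22 repair genes under 45% GC, 7 passed 2-fold downward and none upward, whereas of the 10 with at least 50% GC, 1 was lower, MDC1, and 3 were higher. Of the 13 genes with a transcript over 5000 bases 5 were lower and none higher. Of the 7 under 2500 bases none was lower and 2 were higher. The shares of all genes in these groups of GC content and length were not counted here. The most abundant transcript of ATM has 13147 bases and 39.1% GC, and that of XRCC3 2584 bases and 62.9% GC.

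**Figure D4:**
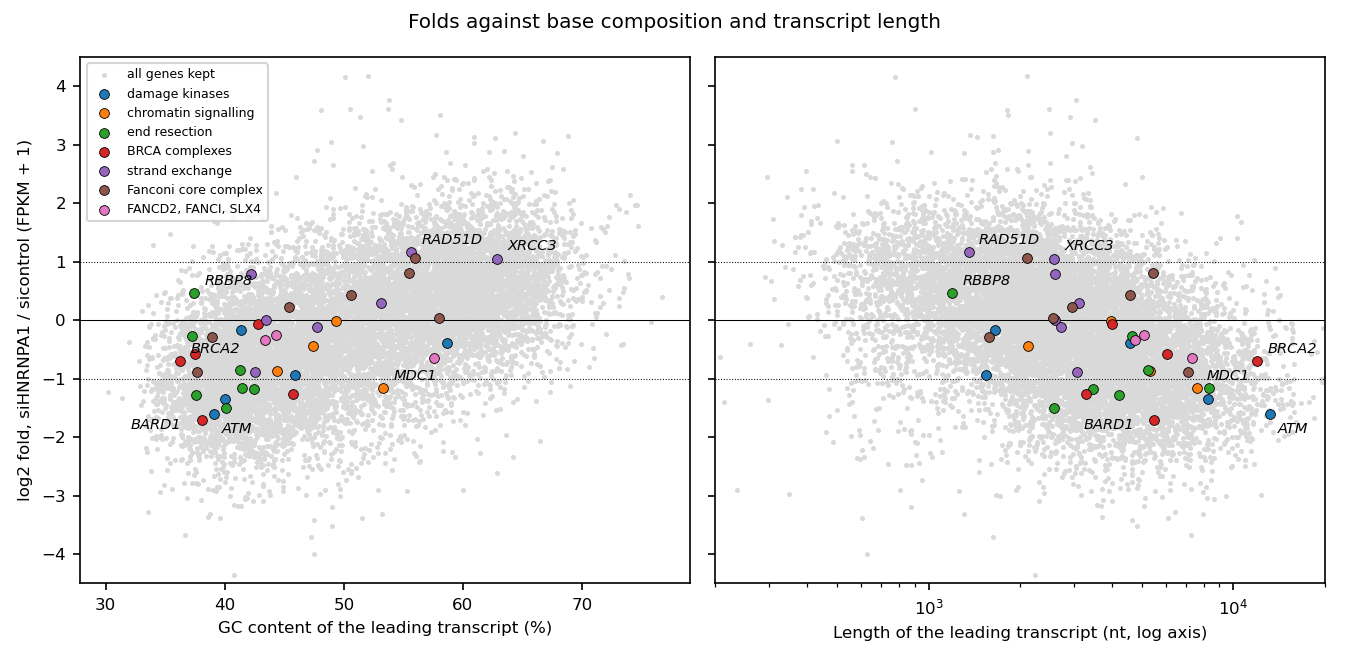
Log2 fold against the GC content (left) and the length (right, log axis) of the most abundant transcript for all genes kept (grey) and the repair genes (coloured by role); dotted lines mark 2-fold. The repair genes lie within the grey cloud, with the 3 higher ones all above 50% GC and 7 of the 9 lower ones under 45%.

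Each gene was therefore also set against the 100 genes nearest to it in mean level, GC content and length, and the median fold of those 100 was subtracted from its own. By this measure none of the repair genes was at least 2-fold lower, where 8.41% of all 11916 genes were, and 1 was higher, RAD51C at 1.30, where 8.06% were. The 9 genes counted as lower had nearest genes with median log2 folds from -1.43 to -0.48, and stood between -0.68 and 0.27 relative to them. EXO1 at -0.02 and ATR at -0.13 were about as low as genes alike in level, GC content and length. ATM stood below such genes at -0.37 and RAD50 above them at 0.27. Of the lower genes BRCA1 and MDC1, both at -0.68, stood furthest under their nearest genes, followed by BARD1 and MRE11 at -0.53. CHEK2 was lowest of all by this measure at -0.88, since the genes nearest to it had a median of -0.07. The median of the 38 became 0.26, with 24 positive and 14 negative values. FANCC and PALB2 (0.99 and 0.98) came just under 2-fold above their nearest genes, followed by FANCD2 (0.92). HNRNPA1 stayed at -1.87.

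**Figure D5:**
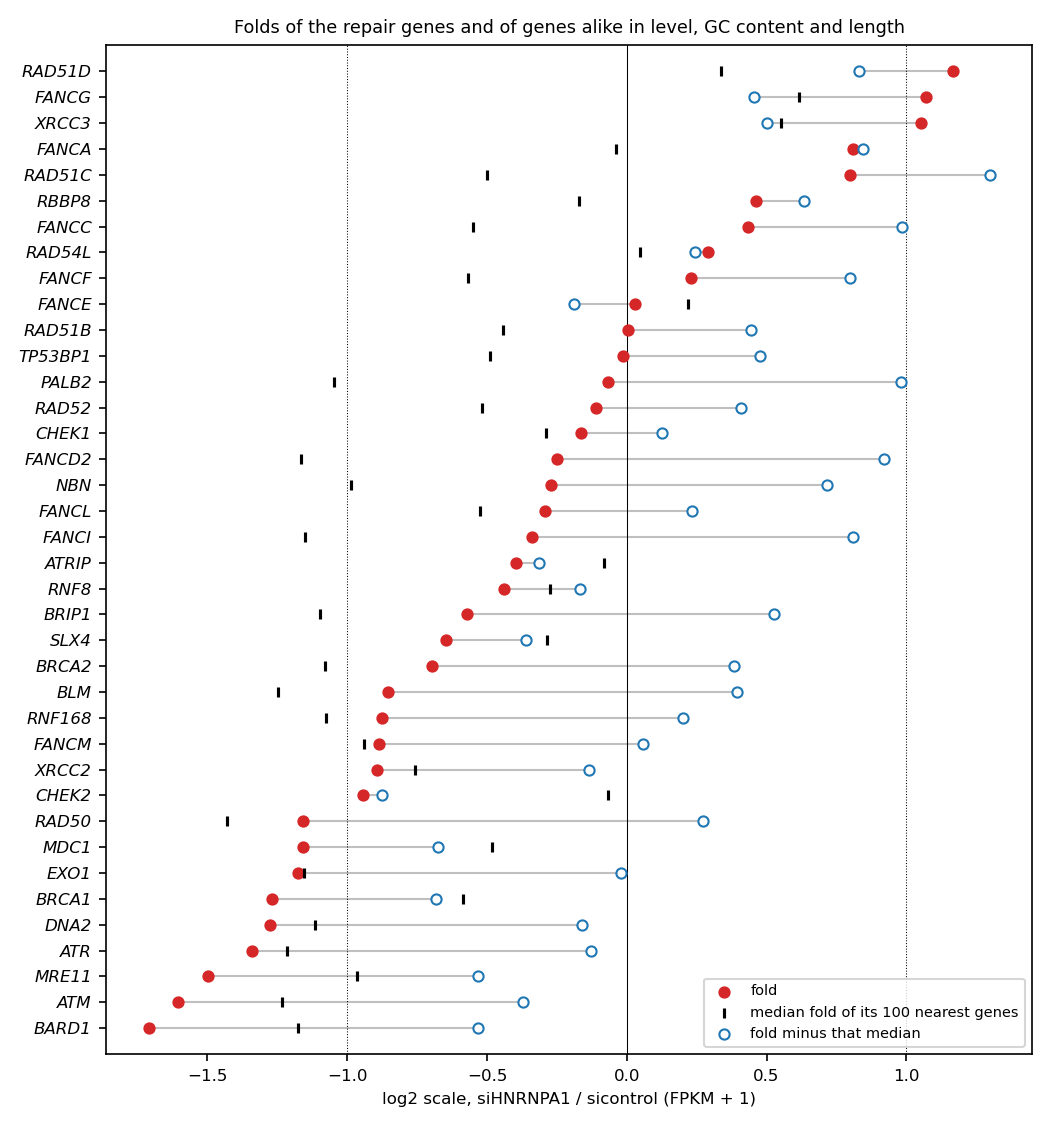
For each of the 38 genes, the log2 fold (red), the median fold of its 100 nearest genes in level, GC content and length (black tick), and the difference (open blue circle); dotted lines mark 2-fold. The red points of the 9 lowest genes lie left of -1 while all blue circles lie right of it, and RAD51C alone passes 1.

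By role, the median after subtraction was -0.31 for the damage kinases, 0.02 for chromatin signalling, 0.27 for end resection, 0.38 for the BRCA complexes, 0.45 for both strand exchange and the Fanconi core complex, and 0.81 for FANCD2, FANCI and SLX4. The damage kinases had the lowest median after subtraction, and end resection, lowest before it at -1.16, came to stand above 0.

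Some levels may hold reads of a neighbour, since whether the counting used strand is not given in the sources used here. XRCC3 shares 66.1% of its exonic bases with KLC1 on the opposite strand (30.5 and 38.7 FPKM after siHNRNPA1 and sicontrol), and TP53BP1 33.5% with TUBGCP4 (3.51 and 7.19 FPKM). RAD54L shares 25.1% with LRRC41, FANCA 23.4% with ZNF276 and FANCL 22.9% with VRK2. On the same strand ATRIP shares 29.6% with TREX1, and RAD50 80.5% with the readthrough model AC116366.3, which was listed at 0 in both libraries. Values of these genes are uncertain to that extent.

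Further genes of the same pathways had folds over a wider range. Of 63 listed genes, 61 were kept. Among them 19 passed 2-fold downward and 12 upward, beside the 21.9% and 12.4% of all genes, and the median log2 fold was -0.0013. The lowest were RAD51AP1, which stimulates strand exchange, with 1.65 and 12.9 FPKM (-2.39), ETAA1, an activator of ATR, with 1.49 and 9.96 FPKM (-2.14), and ABRAXAS1, the scaffold of the BRCA1-A complex, with 1.26 and 7.14 FPKM (-1.85). Highest were CENPX, a partner of FANCM, with 116.6 and 22.2 FPKM (2.34), FAAP100, a core complex subunit, with 36.0 and 8.26 FPKM (2.0), and EME2, a nuclease subunit, with 26.01 and 7.28 FPKM (1.71). Relative to their nearest genes RAD51AP1 and ETAA1 remained past 2-fold (-1.44 and -1.04), and so did CENPX, FAAP100 and EME2 (1.28, 1.38 and 1.36).

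Other repair routes are set beside the same 21.9% and 12.4% of all genes. Of 9 end joining genes kept, 1 was lower, PRKDC (-1.92), and 1 higher, PAXX (1.98), with a median of 0.43. Of 7 mismatch repair genes 2 were lower and none higher (median -0.71), from PMS1 at -1.58 to MLH3 at 0.28, and relative to their nearest genes none passed 2-fold downward and 1 upward (median 0.35). Of 18 nucleotide excision repair genes 1 was lower, RAD23B at -1.18, and none higher (median -0.28, highest GTF2H5 at 0.68). In the table's own KEGG lists, 3 of 26 genes kept of homologous recombination were lower and 7 higher (median 0.47), with 11 of the 39 genes among them. For the Fanconi anaemia pathway 7 of 47 were lower and 9 higher (median 0.03), with 18 of the 39 among them. Differences between these lists were not tested.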

How the data were processed

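The deposited transcript table gives, per the file headers, a count, a TPM and an FPKM for each transcript and library. The counts deposited by the authors were treated as estimated counts that had been rounded up, because 90.3% (siHNRNPA1) and 90.5% (sicontrol) of the counts from 1 to 3 equalled the value implied by FPKM and length, rounded up, within 0.05. The TPM values deposited by the authors are scaled to the same sum in each library, and the deposited FPKM add up to 520633 (siHNRNPA1) and 468831 (sicontrol). Not given in the sources used here were the aligner, the quantification program, the annotation and the strandedness. Mouse builds (GRCm38, mm10) stand in the submitters' processing notes, but 95033 of the 95139 transcripts are in GENCODE release 29 (GRCh38), 93355 at the same position. Coordinates are on GRCh38, and of the 337 transcripts of the repair genes 329 have the same position there. A further 6 sample columns, headed A2 and C3, match no sample in the labels used here. Whether they hold replicates is not known here, and they were not analysed.

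The titles and column names assigned 1 library to each condition. FPKM was summed per gene, 1 FPKM was added before the log2 ratio, genes with a mean of at least 1 FPKM were kept, and 2-fold was the threshold. Shares were compared at 20 percentage points in genes with at least 5 FPKM in both libraries. GC content, length and sequences came from GENCODE 29 transcripts, since no genome was used. No test was applied. Intervals (95%, Poisson for levels, Clopper-Pearson for shares and count ratios) cover counting error only. All 39 genes were named, with transcripts past 20 points, the 3 lowest and 3 highest of the further pathway genes, the extremes of each other repair list, and HNRNPA1. The BRCA1, MRE11, NBN, ATRIP, DNA2, BRIP1 and FANCM transcripts of genes below 5 FPKM, and the decay shares of RAD51D and RAD52, were named after their values had been seen. Some items are not reported here. The genes and lists were chosen with earlier results of these data known. Complete coding transcripts are those typed protein_coding without an incomplete-CDS tag. Alternatives were other pseudocounts, filters, units, scalings and transcript sets. Scripts used Python 3.11.15, numpy 2.4.6, pandas 2.3.3 and scipy 1.17.1, and the subtraction of the nearest genes was tested on simulated data.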

Additional observations from a re-analysis of the deposited data

How the results depend on the processing

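The 9 lower and 3 higher repair genes were counted again under other settings. With a pseudocount of 0.1 FPKM there were 13 and 4, at a median log2 fold of all genes of -0.15. With a pseudocount of 5 FPKM there were 0 and 0, and with TPM 15 and 1, where the median log2 fold of all genes moved from -0.13 to -0.28. With estimated counts scaled to the library total there were 12 lower and 1 higher, without a count of all genes here. The number of higher genes was also 1 with protein-coding transcripts and 1 with complete coding transcripts, beside 10 and 10 lower. Of all genes 12.7% were higher and 21.9% lower with protein-coding transcripts, and 13.3% and 21.2% with complete coding ones. After subtraction of the 100 nearest genes 1 repair gene was higher and 0 were lower, at a median of 0.26. Of all genes 8.06% were higher and 8.41% lower after it. Median ratio scaling (median of all genes 0.00053) kept 9 and 3, without a count of all genes here. Of the 61 further pathway genes 19 were lower and 12 higher. A pseudocount of 5 FPKM left 3 and 5, where 7.94% and 7.05% of all genes were. The subtraction left 4 lower and 11 higher, where 8.41% and 8.06% of all genes were. A mean of at least 5 FPKM left 8 lower and 10 higher of 41, without a count of all genes here. The subtraction turned 14 negative folds positive and 1 positive fold, that of FANCE, negative. Of the genes past 2-fold RAD50 turned (0.27). FANCG turned with protein-coding (-0.80) and complete coding transcripts (-1.09), both chosen after seeing the data. HNRNPA1 stood at -2.03 in TPM and -1.72 after median ratio scaling. From 2 FPKM on, 17 of 26 repair genes passed 20 points, against 11 of 16, as more genes entered. By count shares 8 of 16 did. For neither setting was the share of all genes counted here. The other causes were not tested. With 1 library per condition no paired analysis was possible, and no library could be left out. Both titles end in #1, and whether this numbers a replicate is not given in the labels used here. Depth limits the weakest genes: RAD51B, FANCB and FANCM had 50 to 391 estimated counts.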
